A study of Mus musculus with 42 samples.

Results

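Olfactory sensory neurons (OSNs) send their axons to the olfactory bulb, where they release glutamate onto the next cells of the pathway, and the messenger RNAs for that release are made in their cell bodies in the main olfactory epithelium. The 10 genes described here were taken from a list of symbols for transmitter release and its presynaptic inhibition. The list was chosen with earlier results of these data known. All 10 were found among the 44674 genes of the count table and passed the filter on low counts, which kept 21168 genes. They fall into 4 roles. Syt1, Snap25, Vamp2, Stx1a and Syn1 belong to the machinery that tethers and fuses synaptic vesicles, Slc17a6 loads the vesicles with glutamate, Cacna1b and Scn9a carry the calcium and sodium currents that couple the action potential to release, and Drd2 and Gabbr1 are receptors through which release is held back.

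The data come from a pS6-ribotrap experiment, in which ribosomes bearing phosphorylated S6, a mark left by recent neuronal activity, are pulled down and the RNA on them is sequenced (pulldown, labelled Ribo) beside the RNA of the whole tissue (Input). Male C57BL/6NCrl mice aged 8 to 12 weeks were used, for which the labels and the methods give no transgene and no drug, and each library was made from 4 pooled epithelia. After 1 h, 5 pools had met No Odour, 6 the odour of normal chow (NCD), 5 the odour labelled Bacon, from the bacon-flavoured diet that the study calls BFD, and 5 the odour of the lard-based high-fat diet (HFD). Each of the 21 pools gave 1 pulldown and 1 input library, and the replicate numbers in the labels are 1, 2, 3, 4 and 6 for No Odour, 1 to 6 for NCD, 1 to 5 for Bacon and 1, 2, 3, 5 and 6 for HFD.

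A vesicle fuses when the vesicle protein VAMP2 zips together with syntaxin 1A and SNAP25 of the plasma membrane, and synaptotagmin 1 starts this fusion when calcium enters through channels such as Cav2.2, the product of Cacna1b. Synapsin I holds vesicles in reserve, VGLUT2, the product of Slc17a6, is the glutamate transporter of OSN vesicles, and Nav1.7, the product of Scn9a, is the sodium channel that OSN axons need to excite the bulb. At OSN terminals the dopamine D2 receptor (Drd2) and the GABA-B receptor, of which GABBR1 is the ligand-binding subunit, are the known routes by which bulb interneurons reduce glutamate release.

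The members lie on 8 chromosomes of GRCm38 and all are protein coding. The 2 inhibitory receptor genes are Drd2 (ENSMUSG00000032259, chr9:49340627-49408177, plus strand) and Gabbr1 (ENSMUSG00000024462, chr17:37045966-37075067, plus strand). Slc17a6 (ENSMUSG00000030500) lies at chr7:51622006-51671119 on the plus strand. The channel genes Cacna1b (ENSMUSG00000004113, chr2:24603887-24763152) and Scn9a (ENSMUSG00000075316, chr2:66480080-66634962) lie on the minus strand of one chromosome. Vamp2 (ENSMUSG00000020894, chr11:69088490-69092384, plus strand) is the most compact of them. In the transcripts, 6.23% of the 31-base words of Scn9a also occur in another gene, mainly the related channel gene Scn1a, and 180 of its exon bases lie opposite an antisense gene, so that its estimated count could hold some reads of either. For the other 9 members the shared words are at most 0.355%.

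RefSeq promoter windows (GRCm38.p6, 250 bases before to 50 bases after a start site) were found for 8 members, Snap25 and Vamp2 having no entry. The windows of Drd2 and Slc17a6 are shown because these genes followed each other most closely across pools, as described later, and that of Syn1 because it alone among the members held a cyclic AMP response element. Capitals mark the motifs found on either strand, which are the GC box GGGCGG in the first 2 and the cyclic AMP response element TGACGTCA in the third.
Drd2, chr9:49340153-49340452, plus strand: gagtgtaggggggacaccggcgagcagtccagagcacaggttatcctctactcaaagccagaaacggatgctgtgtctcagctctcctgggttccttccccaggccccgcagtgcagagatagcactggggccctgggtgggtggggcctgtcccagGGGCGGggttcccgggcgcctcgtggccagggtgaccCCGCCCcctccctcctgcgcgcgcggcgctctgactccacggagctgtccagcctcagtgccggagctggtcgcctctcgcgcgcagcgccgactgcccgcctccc
Slc17a6, chr7:51621580-51621879, plus strand: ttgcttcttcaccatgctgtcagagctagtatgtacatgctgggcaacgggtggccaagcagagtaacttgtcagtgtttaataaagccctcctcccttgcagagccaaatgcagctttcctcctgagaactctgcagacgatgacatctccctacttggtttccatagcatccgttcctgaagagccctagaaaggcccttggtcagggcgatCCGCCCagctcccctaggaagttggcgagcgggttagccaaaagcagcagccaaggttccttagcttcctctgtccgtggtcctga
Syn1, chrX:20920869-20921168, minus strand: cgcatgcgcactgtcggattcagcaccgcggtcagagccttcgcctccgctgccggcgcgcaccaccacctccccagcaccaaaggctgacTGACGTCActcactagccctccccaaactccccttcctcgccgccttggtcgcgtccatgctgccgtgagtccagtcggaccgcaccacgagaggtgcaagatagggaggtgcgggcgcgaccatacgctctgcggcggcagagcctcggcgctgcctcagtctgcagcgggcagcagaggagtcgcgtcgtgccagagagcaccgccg

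The cyclic AMP response element was found in 1.79% of all 32851 promoter windows. The GC box was found in 35.7% of the windows and in a window of each of 6 members, Drd2, Slc17a6, Cacna1b, Gabbr1, Stx1a and Syt1. The first value counts windows and the other counts members. Slc17a6 and Syt1 each had a further window, with a GC content of 43% and 44%, that held none of the motifs searched. Neither the Olf1/EBF motif TCCCNNGGGA, which 0.904% of the windows hold, nor the TATA box TATAAA, which 13.6% hold, was found in a window of a member. None of these motifs overlap one another in the printed windows. The GC content was 70.3% in the Drd2 window, 68.3% in the Syn1 window and 53.7% in the printed Slc17a6 window, beside a median of 52.7% over all windows.

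The pulldown libraries held 25392812 to 36738330 counts and the input libraries 24839555 to 36781553, so that the lowest count of any member in any library was 371, for Stx1a. All values below are counts divided by library size after TMM scaling (CPM), and a ratio is the log2 of pulldown over input within a pool. As a check of the labelled tissue, all 12 listed markers of mature OSNs passed the filter, with a summed level of 17426 to 22203 CPM in the inputs without odour and 18977 to 23253 CPM in the pulldowns. The 8 sustentacular cell markers summed to 8241 to 11857 CPM in these inputs and to 2889 to 3704 CPM in these pulldowns, and 8 of 8 fell in the pulldown. The 12 erythroid and immune markers went the other way, from 568 to 1041 CPM in these inputs to 1873 to 2607 CPM in these pulldowns. The part of these other cells in the results below was not tested. Ribosomal RNA and its like took 19.33 to 28.23% of the input counts without odour, but 12.63 to 17.42% with NCD, 9.701 to 12.79% with Bacon and 9.386 to 19% with HFD odour. In the pulldowns the same share was 11.68 to 23.39% without odour and 8.229 to 17.68% with an odour. The pool of No Odour replicate 4 stood apart in the ratios of Cacna1b, Scn9a and Slc17a6, and the main values of these genes without odour or against it are also given without that pool.

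Compared per kilobase of exon, the members differed widely in level within the inputs without odour. Snap25 was highest at 173 ± 17 CPM per kilobase (SD, n = 5), followed by Vamp2 at 131 ± 8.55. Scn9a and Drd2 came next at 21.2 ± 3.03 and 21.2 ± 0.802, and Syt1, Slc17a6 and Syn1 at 18.5 ± 0.869, 16.1 ± 1.45 and 15.3 ± 0.504. Cacna1b, Gabbr1 and Stx1a were lowest at 8.28 ± 2.31, 6.85 ± 0.346 and 6.61 ± 0.9. The ranges of neighbours in this order did not overlap between Snap25 and Vamp2, Vamp2 and Scn9a, Drd2 and Syt1, or Syn1 and Cacna1b, and overlapped between all other neighbours. In the pulldowns without odour Drd2 took the third place alone, at 50.4 ± 3.52 CPM per kilobase, above the whole range of Scn9a at 26.8 ± 2.72. There the ranges of Snap25 (168 ± 21.6) and Vamp2 (158 ± 5.72) overlapped.

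The first question was whether the presynaptic messages were held by the phosphorylated ribosomes more than in the tissue as a whole, before any odour. Without odour 8 of the 10 members were higher in the pulldown than in the input at an adjusted p-value under 0.001, the threshold of the study (edgeR's quasi-likelihood test), and 0 were lower, against 19.8% of all genes tested that were higher and 16% that were lower. The median log2 fold change of the 10 members was 0.47 and that of all genes 0.01. As the members were chosen with earlier results of these data known, these shares describe the list and do not test it. This holds for the later counts of members too. Both inhibitory receptors, the glutamate transporter and both channels were among the 8, and Snap25 and Syt1 were the 2 that were not.

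Drd2 stood furthest above its input. In the 5 pools without odour its pulldown level was 132, 122, 122, 143 and 124 CPM, and its input level was 55.7, 50.9, 53.6, 56.1 and 54.0 CPM. The lowest pulldown was thus above the highest input, and the ratios of the pools kept to the narrow range of 1.19 to 1.35. The fitted log2 fold change was 1.25 ± 0.098 (SE), a 2.37-fold difference with an adjusted p of 1.34e-10 (edgeR).

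Gabbr1, the other inhibitory receptor gene, had 73.0 to 80.2 CPM in the pulldowns and 49.6 to 56.5 CPM in the inputs without odour, a log2 fold change of 0.52 ± 0.054 (edgeR, adjusted p = 9.12e-09). For Slc17a6 the pulldowns had 113, 108, 113, 147 and 137 CPM and the inputs 82.3, 80.8, 84.5, 87.7 and 100.4 CPM. Again no pulldown was as low as any input, and the log2 fold change was 0.50 ± 0.062 (edgeR, adjusted p = 1.71e-07), or 0.43 without replicate 4. Syn1 with 0.48 ± 0.065 and Stx1a with 0.46 ± 0.08 were close to it in size.

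The channel genes were also higher in the pulldown, with 1 pool apart from the rest. Cacna1b had 111, 111, 110.4, 137 and 143 CPM in the pulldowns without odour and 85.3, 87.4, 82.6, 46.3 and 110.1 CPM in the inputs. The fourth of these inputs, from replicate 4, was the lowest by far, and its pool had a ratio of 1.56 where the other 4 pools had 0.34 to 0.42. The log2 fold change was 0.61 ± 0.121 with this pool and 0.37 without it, past the threshold in both cases (edgeR, adjusted p = 1.77e-04 and 1.05e-04). Scn9a had a ratio of 0.77 in that pool and of 0.20 to 0.30 in the others. Its log2 fold change of 0.34 ± 0.071 (edgeR, adjusted p = 1.93e-04) became 0.22 without the pool and no longer passed (edgeR, adjusted p = 0.00184).

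Vamp2 had the smallest difference of the 8 without odour, 0.27 ± 0.064 on the log2 scale (edgeR, adjusted p = 6.93e-04), and leaving out any of 4 of the 5 pools without odour, replicates 1, 2, 3 and 6, ended its call, as did leaving out NCD replicate 5, NCD replicate 6 or HFD replicate 1. Its partners in the fusion complex were not alike. Stx1a was called and Snap25, the most abundant member, was at -0.04 ± 0.072 with a ratio above 0 in 1 of 5 pools. The calcium sensor gene Syt1 was at -0.03 ± 0.064, with 136 to 173 CPM in the pulldowns and 144 to 162 CPM in the inputs. With the ribosomal RNA share in the model 4 of the 8 calls were kept, and with the pools without odour fitted alone 4 were kept, Drd2, Gabbr1 and Syn1 being called in both. The covariate fit kept Stx1a and lost Slc17a6, and the fit of these pools alone did the reverse.

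Averaged over the 4 odour groups, which gives the most precise estimate, again 8 members were higher in the pulldown and 0 lower, where 34% of all genes were higher and 33.3% lower. At an adjusted p under 0.05 the count was 10 higher and 0 lower, and 40.5% of all genes were higher and 40.5% lower. Drd2 led with 1.37 ± 0.048 (2.59-fold), followed by Slc17a6 with 0.62 ± 0.03, Vamp2 with 0.52 ± 0.031 and Gabbr1 with 0.50 ± 0.027. Stx1a had 0.43 ± 0.039, Syn1 0.35 ± 0.032, Cacna1b 0.28 ± 0.059 and Scn9a 0.15 ± 0.034. Without No Odour replicate 4 the values were 0.60 for Slc17a6, 0.22 for Cacna1b and 0.12 for Scn9a, and all 3 were still called. Snap25 with 0.12 ± 0.035 (edgeR, adjusted p = 0.00315) and Syt1 with 0.07 ± 0.031 (edgeR, adjusted p = 0.0469) passed at 0.05 alone.

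The sign was steady from pool to pool for most of them. The ratio was above 0 in 21 of 21 pools for Drd2, Slc17a6, Vamp2, Stx1a and Gabbr1, in 20 pools for Syn1, in 18 for Cacna1b, in 17 for Scn9a and in 16 each for Snap25 and Syt1. With the ribosomal RNA share in the model Cacna1b (0.15, adjusted p = 0.0782) and Scn9a (0.08, adjusted p = 0.141) were no longer called by edgeR in this average, and the other 6 were. Over the same pools Omp, which marks mature OSNs, had a log2 fold change of 0.30 ± 0.036 and Gap43, which marks immature OSNs, 0.63 ± 0.038.

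**Figure D1:**
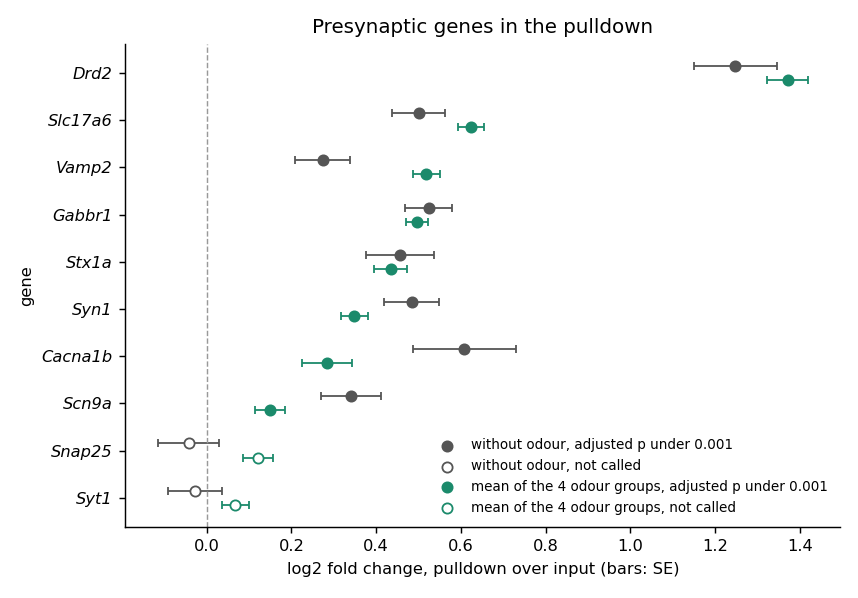
Log2 fold change of pulldown over input for the 10 genes, without odour (grey) and as the mean of the 4 odour groups (green), with SE bars. Filled points passed an adjusted p under 0.001. Drd2 lies alone at 1.25 and 1.37, and Snap25 and Syt1 are the only open points.

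**Figure D2:**
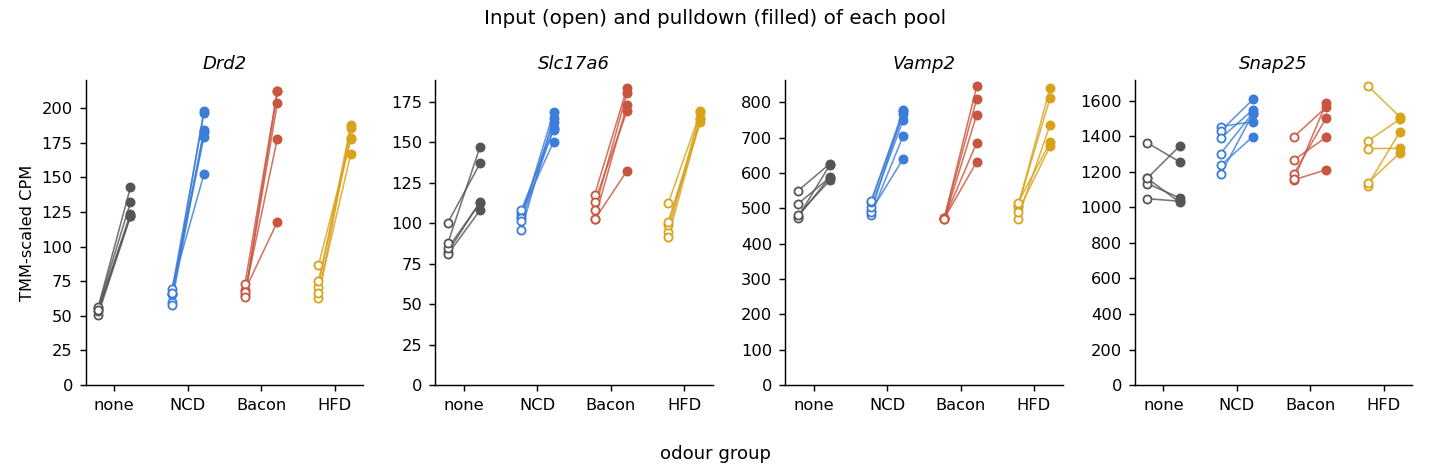
TMM-scaled CPM of Drd2, Slc17a6, Vamp2 and Snap25 in the input (open) and the pulldown (filled) of each pool, joined by a line, by odour group. Every line rises for Drd2, Slc17a6 and Vamp2, whereas Snap25 lines run both ways, with 16 of 21 pools above 0.

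Other genes of the presynaptic terminal were set beside the members in 8 lists that together hold 177 genes, of which 164 were tested. In the mean of the 4 groups 62 of them were higher and 52 lower at an adjusted p under 0.001, against the 34% and 33.3% of all genes given above, with a median log2 fold change of 0.02. These shares are also the background of the counts per list that follow. Among the synaptic vesicle proteins and synaptotagmins 16 of 32 were higher and 8 lower. Sv2a, a vesicle glycoprotein, was higher by 1.07 ± 0.051 and Syt7, another calcium sensor, by 0.82 ± 0.052, while Syt12 was lower (-1.17 ± 0.084). Among the SNARE proteins and their regulators 8 of 25 were higher, such as the complexin gene Cplx2 (0.58 ± 0.04), and 8 were lower, such as Snap29 (-0.71 ± 0.034). Of the active zone scaffold genes 9 of 20 were higher and 5 lower, with Nrxn2 at 1.59 ± 0.084 and Rims3 at 1.01 ± 0.045 against Lin7a at -1.96 ± 0.078. Of the genes for vesicle endocytosis 8 of 21 were higher and 7 lower, the clathrin heavy chain gene Cltc being at -0.43 ± 0.025.

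Of the voltage-gated calcium channel subunits 6 of 16 were higher, among them Cacnb3 (1.02 ± 0.038), a beta subunit, and Cacna1a (0.88 ± 0.07), the pore of the P/Q-type channel, and 6 were lower. Of the sodium channel subunits 4 of 10 were higher and 0 lower, the beta subunit genes Scn4b (0.81 ± 0.041) and Scn3b (0.35 ± 0.03) among them. For presynaptic inhibition 8 of 24 were higher and 11 lower. The G protein genes Gng3 (1.48 ± 0.053) and Gnao1 (0.80 ± 0.036), which couple such receptors to their effectors, were higher, and Kctd12, an auxiliary subunit of the GABA-B receptor, was lower (-1.50 ± 0.057). The other genes of this receptor in the list went both ways. Gabbr2 was higher by 0.77 ± 0.042 and Kctd16 by 0.31 ± 0.057, Kctd12b was lower (-1.89 ± 0.095), and Kctd8 was not called (0.18 ± 0.094). Of the transporters and enzymes of transmitter synthesis 3 of 16 were higher and 7 lower. Slc17a7, the other main vesicular glutamate transporter, was higher by 1.09 ± 0.154 but had a median of only 1.19 CPM in the pulldowns and 0.452 CPM in the inputs.

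The second question was whether a food odour changed how much of each message was held by the phosphorylated ribosomes. At an adjusted p under 0.001 it did so for 0 of the 10 members with NCD, 0 with Bacon and 0 with HFD odour (edgeR), where 0.524%, 3.78% and 1.22% of all genes were called. All 3 comparisons share the 5 pools without odour. The unadjusted p was under 0.05 for 2, 4 and 5 members, DESeq2 called 0, 1 and 0, and limma on the ratios 0, 0 and 0. No share over all genes is set beside these counts. At an adjusted p under 0.05 edgeR passed 1, 3 and 2 members, where 13.1%, 22.5% and 15.7% of all genes passed.

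Vamp2 was the member that passed 0.05 with every odour. Its ratios were 0.31, 0.20, 0.40, 0.19 and 0.27 in the pools without odour. With Bacon odour they were 0.42, 0.84, 0.78, 0.54 and 0.71, with HFD odour 0.65, 0.74, 0.68, 0.41 and 0.46, and with NCD odour they ran from 0.38 to 0.67 with a median of 0.57. All Bacon and HFD ratios were above all those without odour, and the lowest NCD ratio overlapped them. The differences were 0.28 ± 0.087 with NCD, 0.38 ± 0.091 with Bacon and 0.32 ± 0.091 with HFD on the log2 scale (edgeR, adjusted p = 0.0328, 0.00348 and 0.019).

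The pulldown levels of Vamp2 separated in the same way, and the share of all genes that did so was not counted. Without odour the pulldowns had 588, 587, 622, 626 and 579 CPM, and the lowest pulldown with an odour was at 631 CPM, so that none of the 16 odour pools overlapped with them. The inputs ran from 473 to 548 CPM without odour and from 468 to 520 CPM with one. In the Bacon comparison Vamp2 was called by DESeq2 (adjusted p = 1.02e-04) and by edgeR without Bacon replicate 1, the pool with the lowest Bacon ratio (0.44, adjusted p = 5.95e-04). In the HFD comparison it no longer passed 0.05 without HFD replicate 2 (edgeR, 0.28, adjusted p = 0.062). With the ribosomal RNA share in the model Vamp2 passed 0.05 with HFD alone (edgeR, adjusted p = 0.0688 with NCD, 0.0845 with Bacon and 0.0311 with HFD).

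Markers of mature and immature OSNs were set beside these values. The ratio of Omp differed from that without odour by 0.42 ± 0.1 with NCD, 0.64 ± 0.105 with Bacon and 0.42 ± 0.105 with HFD odour (edgeR, adjusted p = 0.00789, 1.89e-04 and 0.00772). Omp inputs differed by -0.13 ± 0.083, -0.45 ± 0.087 and -0.28 ± 0.087 in the same order (edgeR, adjusted p = 0.275, 2.83e-04 and 0.0247). Vamp2 inputs differed by only -0.08 to 0.01. The 12 mature OSN markers summed to 18977 to 23253 CPM in the pulldowns without odour, 24271 to 27253 CPM with NCD, 20980.2 to 28664 CPM with Bacon and 22770 to 25246 CPM with HFD odour, and to 17426 to 22203 CPM in the inputs without odour and 17996 to 21795 CPM with one. The 10 immature OSN markers summed to 2781 to 2849 CPM in the pulldowns without odour. With an odour these sums were lower, at 2552 to 2623 CPM with NCD, 2373 to 2498 CPM with Bacon and 2390 to 2457 CPM with HFD. The ratio of Gap43 differed by 0.04 ± 0.106, 0.19 ± 0.11 and 0.15 ± 0.11 in this order (edgeR, adjusted p = 0.844, 0.236 and 0.379). The part of these markers in the differences of Vamp2 and in the pulldown levels of the other members was not tested.

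The channel genes had ratios that were lower with Bacon odour at an adjusted p under 0.05, though neither gene was called at 0.001. Cacna1b had ratios of 0.38, 0.34, 0.42, 1.56 and 0.37 without odour and of -0.12, -0.19, 0.18, 0.14 and 0.08 with Bacon odour, which did not overlap. The difference of -0.59 ± 0.17 (edgeR, adjusted p = 0.0146) became -0.35 without No Odour replicate 4 (edgeR, adjusted p = 0.0123). Scn9a had ratios of 0.20, 0.30, 0.23, 0.77 and 0.20 without odour and of -0.05, 0.03, -0.08, 0.03 and 0.00 with Bacon odour, again without overlap. Its difference of -0.35 ± 0.1 (edgeR, adjusted p = 0.0121) became -0.23 without that pool (edgeR, adjusted p = 0.0366). Neither gene passed 0.05 with the ribosomal RNA share in the model (edgeR, Cacna1b -0.25, adjusted p = 0.566, and Scn9a -0.16, adjusted p = 0.532) or with the 2 groups fitted alone (edgeR, adjusted p = 0.0759 and 0.0677). The inputs of both genes are given further on. The Cacna1b pulldowns overlapped, with 110.4 to 143 CPM without odour and 116 to 143 CPM with Bacon odour.

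Syn1 was the only other member past 0.05, at -0.31 ± 0.091 with HFD odour (edgeR, adjusted p = 0.0242), with pulldowns of 59.9 to 64.8 CPM that all lay below the 67.1 to 77.1 CPM of the pools without odour. Without HFD replicate 2 it no longer passed (edgeR, -0.25, adjusted p = 0.0853), nor with the 2 groups fitted alone (edgeR, adjusted p = 0.0579). Drd2 had a mean ratio of 1.25 ± 0.0632 (SD, n = 5) without odour, 1.50 ± 0.207 (n = 6) with NCD, 1.42 ± 0.38 (n = 5) with Bacon and 1.32 ± 0.195 (n = 5) with HFD odour. Its ratios overlapped between every odour and none, and the Bacon pools were spread from 0.78 in replicate 1 to 1.74. Without Bacon replicate 1 its Bacon difference went from 0.18 to 0.34 (edgeR, adjusted p = 0.396 and 0.0201). For Gabbr1 the 3 differences lay between -0.12 and 0.02, and for Stx1a between -0.14 and 0.11, neither past 0.05 with any odour. The Stx1a pulldowns with HFD odour, at 18.6 to 20.4 CPM, all lay below the 21.8 to 26.8 CPM of those without odour. The share of all genes that separated likewise was not counted.

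Slc17a6, Syt1 and Snap25 had positive differences with every odour, of 0.12 to 0.24, 0.11 to 0.15 and 0.15 to 0.28 on the log2 scale, and none passed 0.05 (edgeR, lowest adjusted p = 0.0536, for Snap25 with Bacon odour). Without No Odour replicate 4 the HFD difference of Slc17a6 was 0.31 and passed 0.05 (edgeR, adjusted p = 0.0139). In the pulldowns, the levels of Slc17a6, Syt1 and Drd2 were higher in all 11 NCD and HFD pools than in any pool without odour. This compares levels without a test, without the input and without a count of all genes that separated likewise. For Drd2 these pulldowns had 152 to 198 CPM with NCD and 167 to 188 CPM with HFD odour, against 122 to 143 CPM without.

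**Figure D3:**
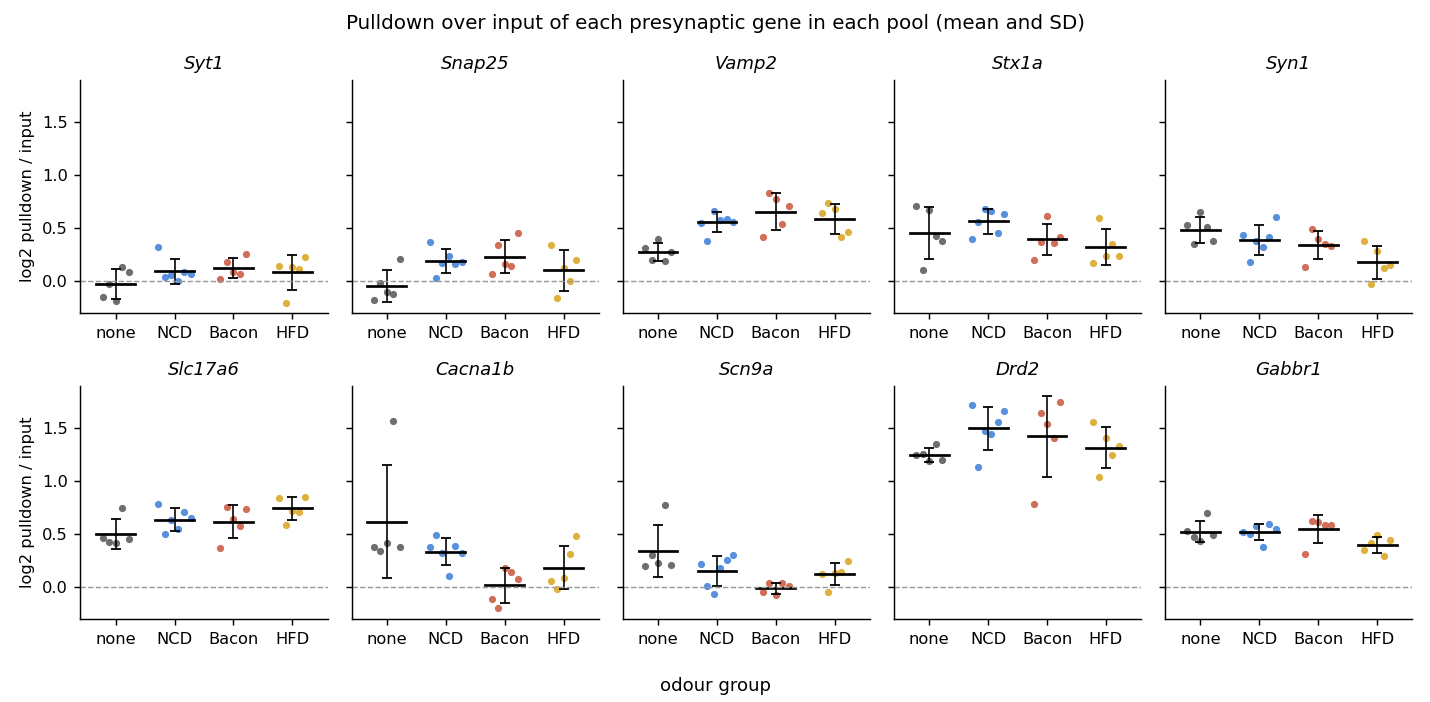
Log2 pulldown over input of the 10 genes in each pool by odour group, with the mean and SD; none is No Odour. The Vamp2 points of Bacon and HFD odour lie above all points without odour, the Cacna1b and Scn9a points of Bacon odour lie below them, and 1 pool without odour has a Cacna1b ratio of 1.56.

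Between 2 food odours the ratios of the members hardly separated. Bacon against NCD, HFD against NCD and HFD against Bacon gave 0 called members each by edgeR, by DESeq2 and by limma on the ratios, where 0.00945%, 0.0236% and 0.0378% of all genes were called by edgeR. The unadjusted p, for which no share over all genes is given, was under 0.05 for 0, 2 and 0 members. The 2 were Syn1 (-0.21 ± 0.087) and Stx1a (-0.24 ± 0.11), both lower with HFD than with NCD odour, each with an adjusted p of 1 (edgeR). The widest difference in these comparisons was that of Cacna1b between Bacon and NCD, -0.32 ± 0.16 (edgeR, adjusted p = 0.7).

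Among the other presynaptic genes, 7 of 164 were called with Bacon, 3 with HFD and 1 with NCD odour in the ratio, against 3.78%, 1.22% and 0.524% of all genes. Cacna1g, the pore gene of a low-voltage-activated calcium channel, fell with all 3, by 1.22 ± 0.185 with NCD, 1.18 ± 0.192 with Bacon and 1.33 ± 0.192 with HFD on the log2 scale, at median levels of 3.58 CPM in the pulldowns and 6.53 CPM in the inputs. Ppfia1, a liprin of the active zone, fell with Bacon (-0.64 ± 0.098) and HFD (-0.57 ± 0.098). Unc13b, a vesicle priming factor, fell with Bacon (-0.61 ± 0.108), and Syt4 rose with HFD (0.42 ± 0.078).

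The third question was whether the members differed between odour groups in the tissue as a whole. Fewer cells of a type and less RNA per cell cannot be told apart in such libraries. With Bacon odour 3 members were higher than without odour and 0 lower, against 13.7% of all genes called by edgeR. With HFD odour 1 was higher and 0 lower, against 0.963%. With NCD odour 0 were called by edgeR or DESeq2, against 0.998%. At an adjusted p under 0.05 there were 4 members with NCD, 5 with Bacon and 4 with HFD odour, beside 23.5%, 39.8% and 21.7% of all genes. The unadjusted p with NCD was under 0.05 for 7 members, a count with no share over all genes beside it.

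The inputs of Scn9a and Cacna1b were highest with Bacon odour, though neither gene was called between Bacon and another food odour in the main fit. The share of all genes with this order was not counted. The inputs of Scn9a had 267, 258, 280, 222 and 329 CPM without odour and 390.5, 359, 419.9, 404 and 383 CPM with Bacon odour. With NCD they ran from 289 to 355 CPM and with HFD from 311 to 351 CPM, so that every Bacon input was above every other. Scn9a rose with Bacon odour by 0.53 ± 0.08 on the log2 scale, a 1.44-fold difference (edgeR, adjusted p = 4.27e-05), and by 0.45 without No Odour replicate 4 (edgeR, adjusted p = 1.85e-05).

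The inputs of Cacna1b had 85.3, 87.4, 82.6, 46.3 and 110.1 CPM without odour and 140.3, 132, 126, 130.1 and 124 CPM with Bacon odour, and 94.6 to 118 CPM with NCD and 99.0 to 123 CPM with HFD. Here too the Bacon inputs lay above all others. Cacna1b rose by 0.66 ± 0.134 (edgeR, adjusted p = 5.83e-04), and by 0.50 without the low input of No Odour replicate 4 (edgeR, adjusted p = 1.68e-05). Slc17a6 rose by 0.32 ± 0.066 (edgeR, adjusted p = 5.50e-04; 0.31 without that replicate), from 82.3, 80.8, 84.5, 87.7 and 100.4 CPM to 102, 103, 118, 113 and 108 CPM.

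The inputs of Drd2 with every odour lay above those without. Its levels were 50.9 to 56.1 CPM without odour, 58.1 to 69.2 CPM with NCD, 68.5, 65.1, 73.1, 67.1 and 63.3 CPM with Bacon and 62.7, 86.6, 71.0, 75.2 and 66.4 CPM with HFD odour. None of the 16 odour inputs was as low as an input without odour, and the share of all genes for which this held was not counted. It rose with HFD by 0.42 ± 0.071 (edgeR, adjusted p = 5.73e-04), and was at 0.32 ± 0.071 with Bacon (edgeR, adjusted p = 0.00106) and at 0.25 ± 0.069 with NCD (edgeR, adjusted p = 0.0118). Of the vesicle machinery 0 of 5 members were called with any odour (edgeR). Vamp2 inputs differed by -0.08 to 0.01, Snap25 inputs by 0.07 to 0.18 and Syn1 inputs by 0.05 to 0.16, none past 0.05. Syt1 inputs differed by 0.15 to 0.19 and passed 0.05 with Bacon alone (edgeR, adjusted p = 0.0263), and Stx1a passed 0.05 with NCD alone, at -0.26 ± 0.089.

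The ribosomal RNA share did not overlap between the inputs without odour and those with an odour, so that odour and share cannot be told apart. With that share as a covariate 0 members were called with Bacon and 0 with HFD, Scn9a being at 0.07, Cacna1b at 0.06, Slc17a6 at -0.03 and, with HFD, Drd2 at 0.12 on the log2 scale (edgeR, adjusted p of 0.792 to 0.99). With the 2 groups fitted alone there were also 0 calls, at nearly the same fold changes (0.51, 0.65, 0.31 and 0.41). The Bacon count fell to 1, Scn9a, without any 1 of No Odour replicates 1, 2 and 3 or Bacon replicates 3, 4 and 5, and the HFD count to 0 without any 1 of No Odour replicates 1, 2 and 3 or HFD replicates 2, 3 and 5. In the same Bacon comparison Omp fell by 0.45 ± 0.087 and Gap43 by 0.45 ± 0.084. The summed marker lists that hold these genes did not fall. The 12 mature OSN markers had input medians of 17968 CPM without odour and 18821 CPM with Bacon odour. For the 10 immature OSN markers the medians were 2293 and 2461 CPM. The part of these markers in the members' values was not tested.

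**Figure D4:**
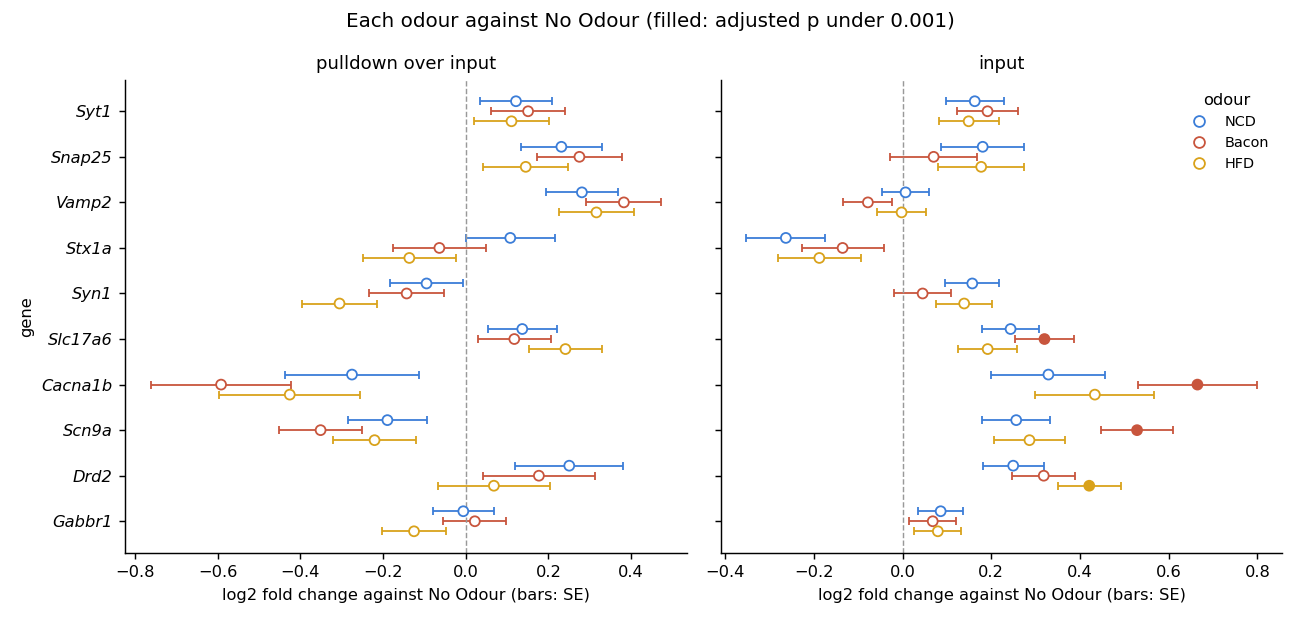
Log2 fold change of each odour against No Odour for the 10 genes, with SE bars, in pulldown over input (left) and in the input (right). Filled points passed an adjusted p under 0.001: none on the left, and on the right Scn9a, Cacna1b and Slc17a6 with Bacon odour and Drd2 with HFD odour.

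**Figure D5:**
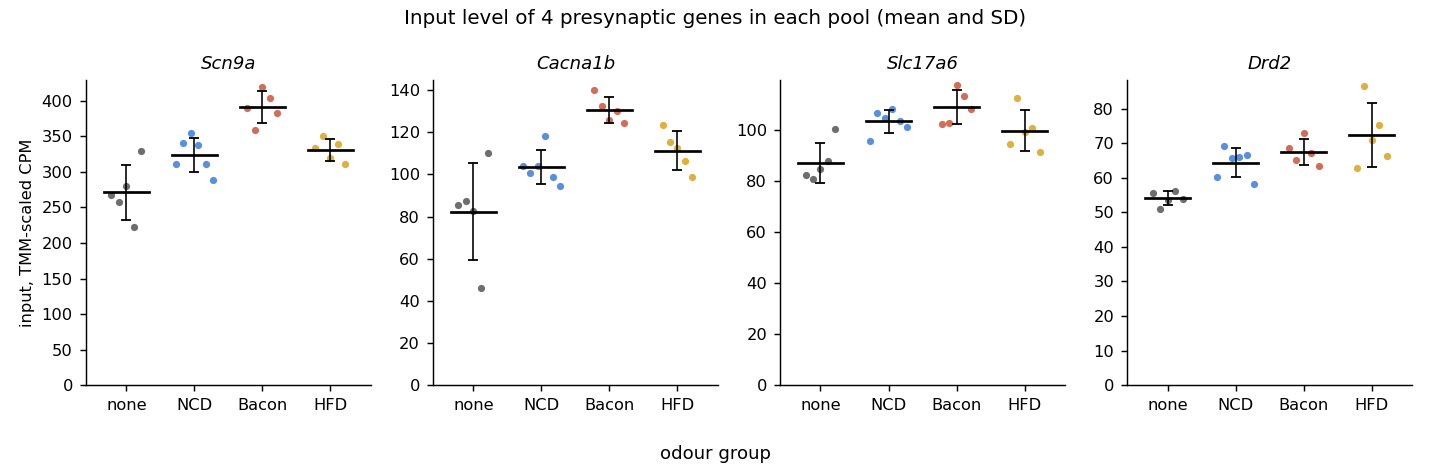
TMM-scaled input CPM of Scn9a, Cacna1b, Slc17a6 and Drd2 in each pool by odour group, with the mean and SD; none is No Odour. The Bacon points of Scn9a and Cacna1b lie above all others, and the Drd2 points of every odour lie above those without.

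Between food odours 0 members were called in the input by edgeR or DESeq2 for Bacon against NCD, HFD against NCD and HFD against Bacon, where 0.108%, 0.0538% and 0.0831% of all genes were called by edgeR. The unadjusted p, again without a share over all genes, was under 0.05 for 2, 1 and 1 members. The 2 were Scn9a (0.27 ± 0.076, edgeR, adjusted p = 0.0514) and Cacna1b (0.34 ± 0.13, edgeR, adjusted p = 0.127) in Bacon against NCD. Both were called when these 2 groups were fitted alone with edgeR (adjusted p = 6.76e-04 and 7.87e-05). The share of all genes called in that fit is not given here. The single members were Drd2, higher with HFD than with NCD (0.17 ± 0.068), and Scn9a, lower with HFD than with Bacon (-0.24 ± 0.08). Of the other presynaptic genes 30 of 163 were called in the input with Bacon odour against none, 22 higher and 8 lower, beside 13.7% of all genes, and 0 with NCD and 0 with HFD. Scn3b, a sodium channel beta subunit, rose by 0.42 ± 0.067 with Bacon, and Rab3a, a small GTPase of vesicles, fell by 0.42 ± 0.068.

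Last, the ratios of the members were compared across the 21 pools after the mean of each odour group was removed. Of the 45 pairs of members 35 had a correlation above 0, with a median Pearson's r of 0.379. Slc17a6 and Drd2 followed each other most closely (r = 0.825), Drd2 and Syn1 had r = 0.741, and Syt1 and Stx1a were the most opposed (r = -0.567). Among all genes tested, those whose ratio was most like that of Drd2 were Cacnb3 (r = 0.952), Lrrn1 (0.943) and Eif4g2 (0.931), and for Slc17a6 they were Ebf2 (0.945), Lingo2 (0.929) and Senp2 (0.921). Vamp2 was closest to Cend1 (0.941), Smim26 (0.934) and Calm3 (0.918), Snap25 to Vsnl1 (0.938), and Syt1 to Tab2 (0.922). The channel genes had other neighbours, Zc3h11a (0.96), Rapgef2 (0.953) and Kdm2a (0.947) for Cacna1b and Med13 (0.944), Pappa (0.936) and Rock1 (0.925) for Scn9a. Lower values were reached for Gabbr1 (0.894), Stx1a (0.874) and Syn1 (0.848). The points of each correlation share their libraries, their scaling and their base composition, and these values are a description.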

How the data were processed

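RNA of 21 pools of main olfactory epithelium was measured in 42 libraries. The authors prepared them with an amplification kit for small RNA amounts, whose strand marking is not given in the sources used here, ran Salmon against GRCm38, and the deposited values are their estimated counts per gene, not normalized. Of these values 30.9% are not whole, and 556 genes without a name carry 0.525% of the counts. The table holds neither the pulldown-to-input ratios nor the DESeq2 results of the study.

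Counts were rounded, filtered with filterByExpr (minimum count 10) and TMM-scaled, and edgeR 4.0.16 (limma 3.58.1, R 4.3.3) fitted a robust quasi-likelihood model with pool terms and a pulldown effect per odour to 21168 genes. The inputs were fitted by odour group (20451 genes). Tests were two-sided, and p-values were adjusted over all tested genes (Benjamini-Hochberg). Each SE was taken from the fold change and its F statistic. The log2 ratio of a pool used a prior count of 2. Overlap between groups was examined for the members alone, so that it has no share over all genes beside it. Counting error is small at this depth, the common biological coefficient of variation was 12%, and the p-values measure the spread between pools. No pair of libraries of a group was a duplicate (chi-square of counts at least 3.33 per degree of freedom in 90 pairs).

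Pulldown and input of a pool come from the same tissue by the methods. Checked on the counts, both deviated from their group means with a correlation of 0.0142 (median of 21 pools), and libraries of different pools with one of -0.00416 (90 pairs).

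The 10 members are always named. Of each of 8 lists of other presynaptic genes, up to 3 genes with the smallest p in each direction of the mean pulldown effect and up to 3 called per odour comparison could be named, and for each member the 3 genes with the most similar ratio. Gabbr2, Kctd16, Kctd12b and Kctd8 were named beside Kctd12 outside this rule. Members, lists and markers were chosen with earlier results of these data known. The fits were tested on simulated data. Alternatives were DESeq2 1.42.0, its size factors, limma on the ratios, no filter, no pool term, a replicate block, each library's ribosomal RNA share as covariate, the compared groups alone, an adjusted p of 0.05, other prior counts, total counts as library size and leaving out each pool in turn. Words of 31 bases shared between transcripts came from GENCODE M21, as the annotation release is not given in the sources used here.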

Additional observations from a re-analysis of the deposited data

Results flagged for a closer look

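In each group of 5 or 6 pools the highest and the lowest value of every member were set against the others, in the pulldown, in the input and in their log2 ratio. Of 120 groups of values 8 held a pool that stood apart by Dixon's criterion, which chance gives in about 1 of 20 groups. In No Odour replicate 4 the log2 ratio was 1.56 for Cacna1b (0.343 to 0.418 in the other pools), 0.772 for Scn9a (0.198 to 0.298) and 0.749 for Slc17a6 (0.418 to 0.461). In Bacon replicate 1 the log2 ratio of Gabbr1 was 0.313 (0.585 to 0.624) and the pulldown level of Slc17a6 was 132 CPM (169 to 184). The log2 ratio of Syt1 was 0.325 in NCD replicate 1 (-0.0034 to 0.0834) and -0.204 in HFD replicate 2 (0.114 to 0.231). The input level of Stx1a was 21.8 CPM in No Odour replicate 2 (16.2 to 17.3).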

How the results depend on the processing

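The counts of called members given here stand beside those of the report. For fits other than the main one, the shares of all genes called are not given. Pulldown over input without odour gave 4 members with each library's ribosomal RNA share as covariate and 4 with the pools without odour alone, and the share differed between the odour groups, so that odour and share cannot be told apart. At an adjusted p under 0.05 the ratio against No Odour gave 1 member with NCD, 3 with Bacon and 2 with HFD, and the input 4, 5 and 4. DESeq2 called 1 member in the Bacon ratio and 4 in the Bacon input. Without the filter on low counts 6 members were called without odour, 6 in the mean of the groups and 2 in the Bacon input, and with DESeq2 size factors 7, 7 and 3. In the input with Bacon odour 0 members were called with the covariate and 0 with the groups compared alone, and with HFD odour 0 and 0. Slc17a6 reversed there, at -0.031 with the covariate in Bacon. Bacon against NCD in the input gave 2 members with those groups alone. For these changes of count the cause was not tested, beyond the fewer samples in the fits of single groups.

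Leaving out each pool in turn gave 7 to 8 members without odour, 8 to 9 in the mean of the groups, 0 to 1 in the Bacon ratio, 1 to 4 in the Bacon input and 0 to 1 in the HFD input, and 0 to 0 in the other 9 comparisons. Drd2, Gabbr1 and Syn1 kept their calls in pulldown over input under every alternative tried, whereas Vamp2 without odour lost its call in 12 of 30.

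The replicate numbers are not stated to mark animals, litters or days shared between odour groups, and pools with the same number did not deviate together (median r 0.0205 over 27 pairs in the ratio, lowest -0.214, and 0.02 in the input). With the number as a replicate block the counts were 7 without odour and 8 in the mean of the groups, 1 in the Bacon input and 0 in the HFD input, and the block changed no other count at 0.001. At 0.05 it gave 1 in the HFD ratio, Syn1 no longer passing, 4 in the Bacon input and 2 in the HFD input. The lowest count of any member was 371, and 5 or 6 pools a group limit the precision more than the depth does.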
